A study of Mus musculus with 2 samples.

Results

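The 9 genes described here encode the cytokine interleukin-10 (Il10), its receptor chains (Il10ra and Il10rb), the transcription factor that the receptor activates (Stat3), and 5 genes that this pathway is known to switch on in macrophages (Socs3, Bcl3, Nfil3, Sbno2 and Etv3). They were chosen by name, as every non-control probe whose gene name in the array files is one of the 9. This gave 11 probes on 29 spots, and all 9 genes were among the 12417 named genes measured on both arrays. The cells were mouse bone marrow-derived macrophages, grown from marrow for 5 days in medium from the CMG14-12 cell line, which supplies M-CSF, and then given 100 ng/ml lipopolysaccharide (LPS) for 5 h. One preparation was labelled c-Maf+/- and the other c-Maf-/-, and 50 ng of total RNA from each was labelled with Cy3 for 1 array. There was no wild-type and no unstimulated sample, so both groups share the LPS treatment and the control itself has only 1 intact copy of Maf. Strain, age and number of mice, and the part of Maf that was removed, are not given in the sources used here.

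IL-10 is the main cytokine by which macrophages restrain their own inflammatory output. It binds a receptor of IL10RA and IL10RB chains, whose associated Janus kinases phosphorylate STAT3, and STAT3 then enters the nucleus and activates genes that limit transcription of inflammatory mediators. After LPS, macrophages first make inflammatory cytokines and then IL-10, which acts back on the same cells. c-Maf, the basic leucine zipper factor missing from the c-Maf-/- cells, is known as an activator of Il10 in macrophages. The comparison therefore asks how Il10 and the pathway downstream of it stood in LPS-treated macrophages without c-Maf.

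Each genotype had 1 array, so no test between genotypes was possible and every difference is between these 2 arrays. A negative log2 difference means a lower value in c-Maf-/- than in c-Maf+/-, once each array had been scaled to its 75th percentile signal. Signals are the processed spot brightness in the deposited files, in arbitrary units. Errors are of 2 kinds, both technical. One is the standard deviation (SD) over repeated spots of 1 probe, and the other is the error that the scanner software assigns to a spot, which for a difference between the arrays was close to 0.20 log2 units for these probes. This software error rests mainly on a fixed 10% multiplicative term and was not measured from repeated spots. The measured SD over 10 spots was smaller, 0.06 for the Il10 probe and 0.05 for the first Stat3 probe. No error covers cultures or mice.

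The probe stretches below show what was hybridised for the genes on which the results turn: Il10, which carried the large difference, and the pairs of probes for Stat3 and Sbno2, which allow a check within a gene. Each is 30 bases of a 60-base probe, read from the deposited files, 5′ to 3′ as the files give it. Capitals mark the pentamer ATTTA, the core of the AU-rich elements common in cytokine mRNAs, which was present once each in the 60 bases of the Il10 and Il10rb probes and in no other member's probe.
Il10: tctctccgaaatATTTAttacctctgatac
Stat3 probe 1: cactctgtgagctgataccccaggctggga
Stat3 probe 2: tttaacattctgggcacgaacacaaaagtg
Sbno2 probe 1: agagctgcgacatcaatttcagggaagtgt
Sbno2 probe 2: tgagactcacagccaaggtcagggctatgc

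By array coordinates in build mm9, the Il10 probe lies at chr1:132920943-132921002 on the plus strand and was designed to NM_010548. The Stat3 probes lie at chr11:100749598-100749657 (NM_213659) and chr11:100759946-100760005 (NM_011486), both on the minus strand. The Sbno2 probes lie at chr10:79520259-79520318 (NM_183426) and chr10:79525162-79525221 (the cDNA clone BC064113), also on the minus strand. An annotation of this build was not used here, so exon positions are not stated.

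The genotype labels, the cell type and the arrays were checked first. One Maf probe read 15101 in the c-Maf+/- array and only 12.6, not well above background, where Maf was disrupted. The other read 541 and 5.96, also not well above background in c-Maf-/-. The bounds were at least 636-fold and at least 22.8-fold lower for the respective probes and at least 120-fold for their mean (log2 bound -6.91), which became at least 31.3-fold with normexp background correction and at least 39.0-fold if no background was subtracted. Whether these probes lie in the removed part is not known. All 8 macrophage markers were well above background on both arrays. Of these, 5 were below 0 and 3 above, and their summed signal went from 235981 in c-Maf+/- to 272934 in c-Maf-/-. Csf1r (-0.03), Cd68 (-0.40), Adgre1 (-0.40) and Fcgr1 (-0.58) were within 2-fold, and Lyz2 (0.58) and Cd14 (0.46) were the highest. The rise of the sum came mainly from Lyz2 (60919 and 92590) and Cd14 (71344 and 100111), so it says little of the other markers. Mertk, a receptor for the uptake of dying cells, was 3.76-fold lower (-1.91), from 271 to 73.5, the one marker of the 8 past 2-fold. Of the non-control spots, 45.3% and 44.9% were well above background and 0 were saturated on either array. Xist, transcribed in female cells, had signals of 115 and 263 for its 2 probes in c-Maf+/- and was not well above background in c-Maf-/-, while the Y-linked Eif2s3y had signals of 2465 and 3906. Sex make-up and genotype of the preparations cannot be told apart.

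Il10 was the member with by far the largest difference, at 22.2% of its c-Maf+/- level in c-Maf-/- macrophages. Its probe was printed on 10 spots per array. In c-Maf+/- the lowest, median and highest spots had signals of 5151, 5564 and 5732. In c-Maf-/- they had signals of 1166, 1234 and 1390. Every c-Maf-/- spot was below every c-Maf+/- spot, and each spot stayed well above background, so Il10 mRNA was lower but still measured without c-Maf. The log2 difference was -2.17 (SD 0.06 over 10 spots), which is 4.51-fold lower, and single spots ran from -2.28 to -2.05. In RNA from a whole culture, fewer cells making Il10 and less Il10 RNA per cell cannot be told apart.

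**Figure D1:**
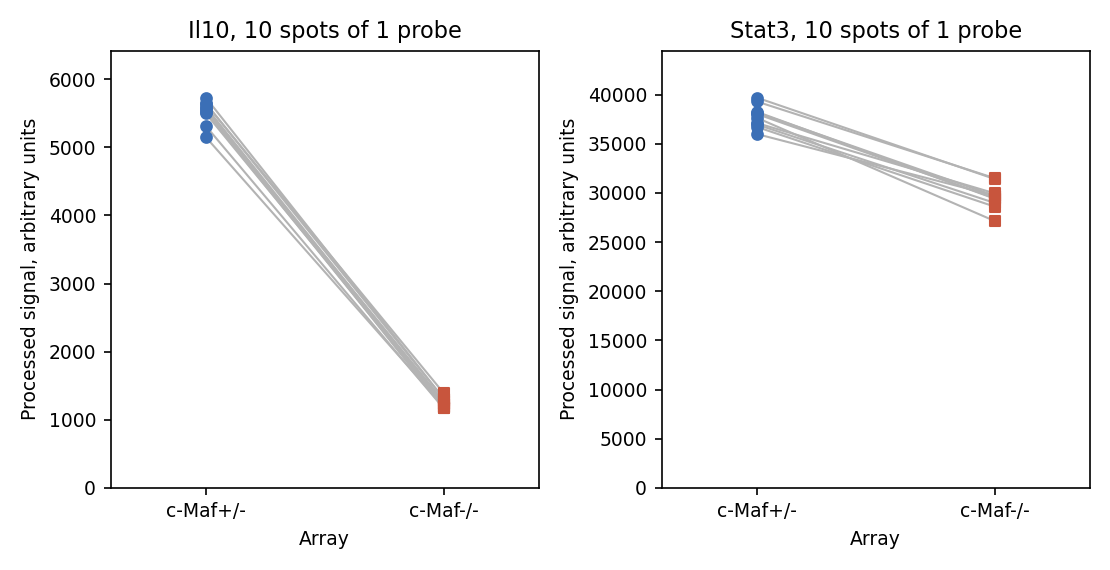
Processed signal (arbitrary units, axes from 0) of the 10 spots of the Il10 probe and of the 10 spots of the first Stat3 probe on the c-Maf+/- array (circles) and the c-Maf-/- array (squares). Lines join the same spot position on both arrays. For both probes no c-Maf-/- spot reaches the lowest c-Maf+/- spot, with a wide gap for Il10 and a small one for Stat3.

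Among the 12417 genes, 13 including Il10 had a difference as low as that of Il10 or lower. This count was 4 with normexp and if no background was subtracted, and 104 of 22611 genes if dim probes were kept. Of the 1271 other genes within 0.5 log2 units of its mean brightness, whose differences had an SD of 0.35, only 1 was as low. The 5 genes whose difference over the 2 arrays was nearest to that of Il10 were the eotaxin receptor gene Ccr3 (-2.18), the mannose receptor gene Mrc1 (-2.14), the calponin gene Cnn3 (-2.24, SD 0.45 over 2 probes), Snn (-2.10) and Meikin (-2.27). With 2 arrays this likeness is only a similar fold difference, and it depended on the background correction. With normexp, where Il10 was at -2.11, Mrc1 (-2.06) and Cnn3 (-2.01) stayed near it, whereas Ccr3 was at -1.61, Snn at -1.58 and Meikin at -1.41. Cnn3 was at -1.60 if dim probes were kept. Mrc1 had signals of 4661 and 1080, whereas Meikin had dim signals of 240 and 50.8.

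The genes beside Il10 did not share its difference. Il10 stands in a cluster of related cytokine genes with Il19, Il20 and Il24, next to Mapkapk2, which encodes a kinase activated by p38. Of 17 other named genes with a probe within 500 kb of the Il10 probe, 9 were measured on both arrays, 0 of them past 2-fold in either direction. Their median was -0.04, against -0.02 over all genes. The nearest measured genes on either side were Il19, at -0.02 over 2 probes (SD 0.01), and Mapkapk2, at 0.13. Rassf5 (0.66), a Ras-binding protein gene, was the highest, and Mapkapk2 came next. Srgap2 (-0.44, SD 0.37 over 2 probes) and AA986860 (-0.29) were the lowest.

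The other relatives of IL-10 were mostly faint. Il19, made by activated myeloid cells, had signals of 8458 and 8447 for its first probe in c-Maf+/- and c-Maf-/-, and 3039 and 3065 for its second. The interferon lambda gene Ifnl3 was at -0.37 from dim signals of 170 and 134. Il20 was well above background only in c-Maf+/- and Il24 only in c-Maf-/-, each from 1 of 2 probes and close to background, with log2 bounds of -0.55 and 0.40. Il22, an IL-10 relative of lymphocytes, was well above background on neither array.

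Both chains of the receptor differed little between the arrays. Il10ra encodes the chain that binds IL-10 with high affinity, and its single spot had signals of 3867 and 3590 in the 2 genotypes. Its log2 difference was -0.13 against a software error of 0.20. Il10rb encodes the second chain, which is shared with the receptors of IL-22 and interferon lambda. Its single spot had signals of 5003 and 4562, a log2 difference of -0.16 against an error of 0.20. Neither difference exceeded the software error, which is a preset value and not a measured spread. Il10ra turned to 0.0034 with spike-in scaling, while Il10rb stayed below 0 with each of the 7 alternatives, between -0.16 and -0.02. For these 2 genes of 1 spot each, keeping dim probes or outlier spots and the brightest probe could change nothing.

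Il10ra and Il10rb belong to the class II cytokine receptors, of which 6 of 10 other members were measured, with a median of 0.11. The interferon receptor chains lay close to 0, with Ifngr2 at 0.12, Ifnar1 at 0.10, Ifngr1 at 0.02 and Ifnar2 at -0.03, the only measured member below 0. F3, which encodes tissue factor, the cell-surface starter of blood clotting, was 3.21-fold higher in c-Maf-/- (log2 difference 1.68), from a signal of 362 to 1181. The next highest were Ifngr2 and Il20rb (0.11). The receptor genes Il20ra, Il22ra1, Il22ra2 and Ifnlr1 were well above background on neither array.

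Stat3 was lower in c-Maf-/- macrophages by a small amount that both probes shared. The first probe had c-Maf+/- spots with a lowest, median and highest signal of 35986, 37833 and 39688. Its c-Maf-/- spots ran from 27139 through 29591 to 31493. The spots of the arrays did not overlap, and the log2 difference was -0.38 (SD 0.05 over 10 spots). The second probe, on 1 spot, went from 1065 to 838, a difference of -0.37. The SD over the 2 probes was 0.01, and Stat3 stood at 77.1% of its c-Maf+/- level. Among all genes 13.6% had a difference as low or lower, so a difference of this size was common on these arrays.

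The kinases and relatives of STAT3 showed differences of like size in both directions. All 10 other Janus kinase and STAT genes were measured, 7 of them below 0 and 0 past 2-fold, with a median of -0.27. Over all genes 53.7% were below 0. The lowest were Stat5a (-0.62) and Stat5b (-0.50, SD 0.04 over 2 probes), the STAT factors of the GM-CSF and growth hormone receptors. The highest were Stat6 (0.37, SD 0.09 over 3 probes), the factor downstream of interleukin-4, and Stat4 (0.28). Of 10 other receptors known to signal through STAT3, 8 were measured and 0 lay past 2-fold, with a median of 0.09. Il21r (-0.74) and Osmr (-0.25, from dim signals of 39.1 and 33.4) were the lowest. Il6ra (0.56), the interleukin-6 receptor chain, and Lifr (0.14, from dim signals of 90.9 and 102) were the highest. The shared chain gp130 (Il6st) was at 0.04.

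**Figure D2:**
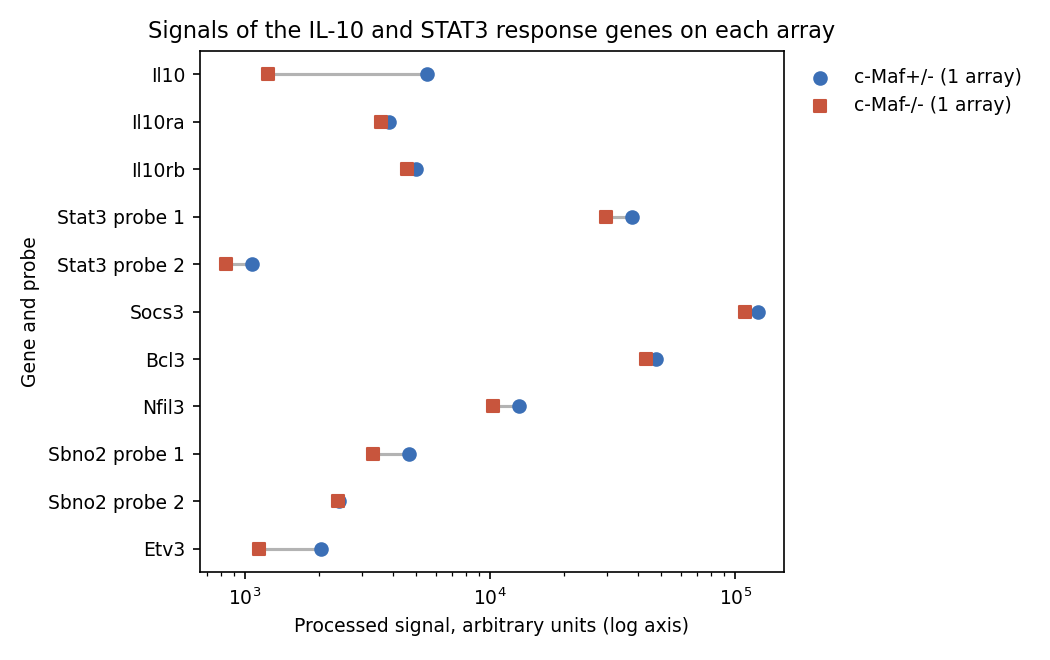
Processed signal (arbitrary units, log axis) of each of the 11 probes on the c-Maf+/- array (circles) and the c-Maf-/- array (squares), as the mean over spots of log2 signals. In all 11 probes the square lies to the left of the circle, by a wide margin for Il10, by less for Etv3 and by little for the rest.

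Among the 5 response genes, Etv3 had the largest difference and the others were within 0.4 log2 units of 0. Etv3 encodes an ETS-family repressor, and its single spot (chr3:87342947-87343006, mm9) had signals of 2039 with and 1139 without an intact Maf copy. This is 1.82-fold lower, a log2 difference of -0.87 against a software error of 0.20. Over all genes 2.59% were as low or lower, and 24 of the 1392 genes of like brightness were. Etv3 did not reach 2-fold under any of the 7 alternatives tried, where it ran from -0.87 to -0.73. With dim probes kept, outlier spots kept or the brightest probe its value could not change, since it rests on 1 spot.

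Nfil3 encodes a basic leucine zipper repressor that acts on Il12b, among others. Its single spot (chr13:53062578-53062637, mm9) had signals of 13094 and 10306, a log2 difference of -0.37 against an error of 0.20. Sbno2 encodes a helicase-like co-repressor, and its 2 probes did not give the same size. The probe to NM_183426 had signals of 4653 and 3334, a difference of -0.51. The probe to the cDNA clone had signals of 2410 and 2390, a difference of -0.04, within the software error. Their mean was -0.27 with an SD of 0.33 over the 2 probes, so whether Sbno2 differed at all depends on the probe.

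Socs3 and Bcl3 were each near their c-Maf+/- level without c-Maf. Socs3 encodes a suppressor of cytokine signalling that STAT3 activates and that blocks the interleukin-6 receptor chain gp130 rather than the IL-10 receptor. Its single spot (chr11:117827480-117827539, mm9) had signals of 123330 and 109726, a log2 difference of -0.19 against an error of 0.20. Bcl3 encodes an atypical inhibitor of NF-kB that holds p50 dimers on DNA. Its single spot (chr7:20393826-20393885, mm9) had signals of 47608 and 43131, a difference of -0.17 against the same error. Neither gene differed by more than this software error, which is a preset value and not a measured spread, while Il10 itself was 4.51-fold lower.

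**Figure D3:**
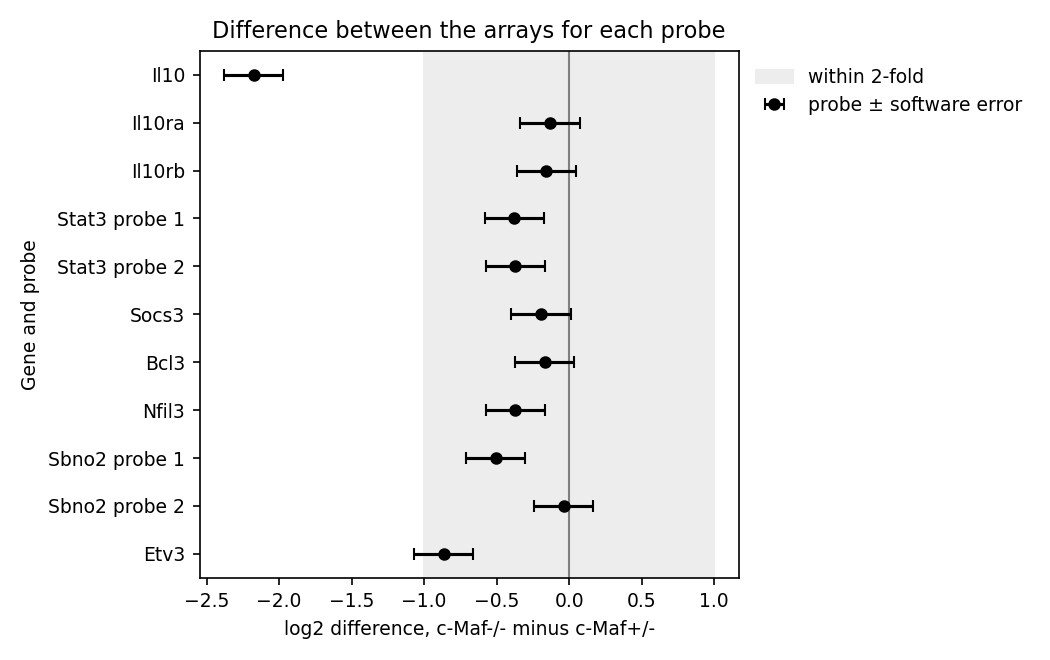
The log2 difference, c-Maf-/- minus c-Maf+/-, of each of the 11 probes, with bars for the scanner software's error of a difference between 2 spots (0.20). The grey band is the range within 2-fold. Only Il10 (-2.17) lies outside the band, and the bars of Il10ra, Il10rb, Socs3, Bcl3 and the second Sbno2 probe cross 0.

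Counted at 2-fold, 1 of the 9 genes (Il10) was lower in c-Maf-/-, against 1.74% of all 12417 genes, and 0 were higher, against 1.43%. All 9 genes and all 11 probes had a value below 0, where 53.7% of all genes did. The 9 genes had a median of -0.27, and the 8 without Il10 a median of -0.23, against -0.02 over all genes. The SD over all genes was 0.41 and the middle range between the 25th and 75th percentile ran from -0.20 to 0.16. Of the members, Il10ra, Il10rb, Bcl3 and Socs3 lay inside that range. A shared direction this close to 0 moves with the scaling. With spike-in scaling, which raised every difference by 0.14, 8 of the 9 were below 0 and the median was -0.14, while the median of all genes became 0.11. All 9 lay below the median of all genes with the main scaling and with each of the 7 alternatives. Spike-in scaling shifts every gene equally, so it could not change this position. Keeping dim probes or outlier spots left the values of all 9 members as they were. The members were chosen with earlier results of these data known, and their shared direction was not tested. The genes were read on the same 2 arrays and are not replicates of the genotypes.

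**Figure D4:**
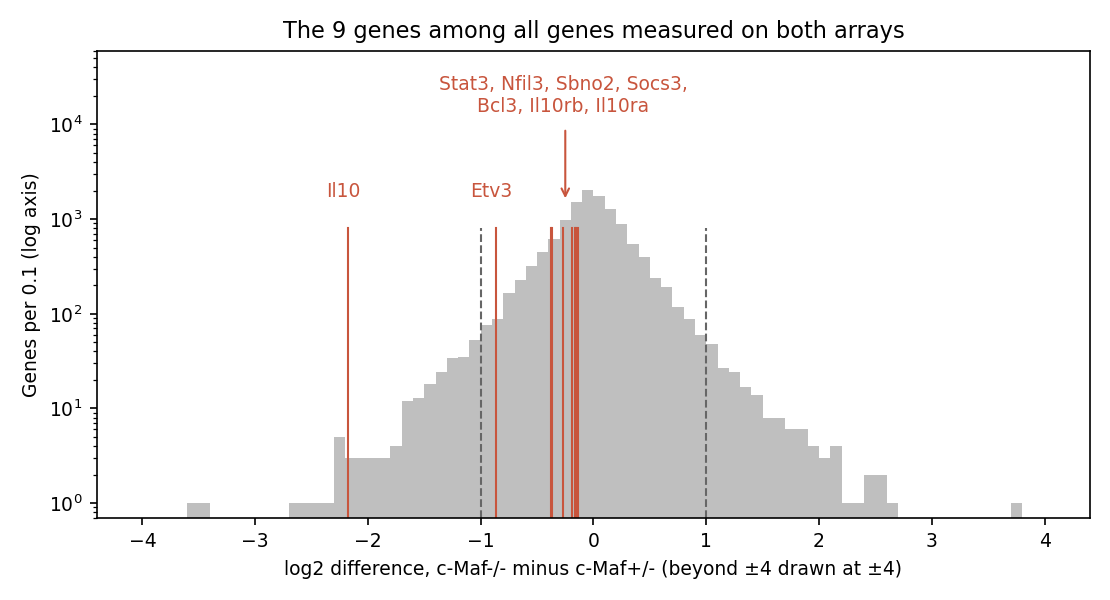
Number of genes (log axis) by log2 difference, c-Maf-/- minus c-Maf+/-, for the 12417 genes measured on both arrays, in steps of 0.1, with the 9 members as vertical lines. Dashed lines mark 2-fold. Il10 lies in the far lower tail, Etv3 (-0.87) between the bulk and 2-fold, and the remaining 7 members in the lower part of the bulk, between -0.37 and -0.13.

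Promoter sequence was searched for the letters of a STAT element, TTCNNNGAA (its own reverse complement), and of the half-site bound by Maf proteins, TGCTGA (both strands). Windows of 250 bases before to 50 after each annotated start, from RefSeq in build GRCm38, matched 6 of the 9 genes (Stat3, Socs3, Bcl3, Nfil3, Sbno2 and Etv3) with 8 starts. TTCNNNGAA was present in 3 of these 8 windows, those of Socs3 and of 2 of the 3 starts of Sbno2, and in 8.30% of all 32851 windows. TGCTGA was present in 1 of the 8, that of Stat3, and in 19.5% of all windows. No window of the 8 held both motifs. The stretches of 120 bases below show the STAT letters in capitals in the genes named for responding to STAT3, on the minus strand of their chromosomes, 5′ to 3′ along the gene.
Socs3, chr11:117969456-117969575: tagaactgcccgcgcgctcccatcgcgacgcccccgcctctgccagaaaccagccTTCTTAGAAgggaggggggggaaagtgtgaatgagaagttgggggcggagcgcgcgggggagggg
Sbno2, chr10:80101147-80101266: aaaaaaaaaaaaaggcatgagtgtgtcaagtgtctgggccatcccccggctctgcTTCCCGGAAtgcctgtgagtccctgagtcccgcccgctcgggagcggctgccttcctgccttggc
Sbno2, chr10:80102664-80102783: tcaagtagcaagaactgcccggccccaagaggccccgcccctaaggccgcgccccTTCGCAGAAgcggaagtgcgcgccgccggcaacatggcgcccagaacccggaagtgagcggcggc

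The capitals begin 154 bases before the annotated start of Socs3, and 24 and 26 bases before the respective starts of Sbno2. A match of letters is a description and not a measured binding site. The expression differences of these genes were -0.19 for Socs3 and -0.27 for Sbno2.

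The wider pathway was described through further lists. Their counts stand against 53.7% of all genes below 0, 1.74% at least 2-fold lower and 1.43% at least 2-fold higher. Genes known to be induced by IL-10 in macrophages went both ways. Of 16, 15 were measured, with a median of -0.21, 9 below 0, 1 at least 2-fold lower and 1 at least 2-fold higher. The share below 0, 60%, was near that of all genes. Il4ra, the interleukin-4 receptor alpha chain, had signals of 8070 and 2547 and was 3.22-fold lower (-1.69, SD 0.28 over 2 probes). Dusp1 (-0.78), a phosphatase that shuts off p38, was the next lowest. Ddit4, an inhibitor of the growth kinase mTORC1, went from 1141 to 3973 and was 3.42-fold higher (1.77). The next highest was the heme oxygenase gene Hmox1 (0.86, SD 0.09 over 2 probes). The scavenger receptor gene Cd163 was well above background on neither array.

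Brakes on cytokine signalling other than Socs3 also went both ways. Of 15 genes of the SOCS, PIAS and phosphatase families, 13 were measured, with a median of -0.05, 0 at least 2-fold lower and 1 at least 2-fold higher. Socs1, the suppressor of interferon signalling, went from 9768 to 6572 (-0.60), and Socs6 was at -0.55 (SD 0.34 over 2 probes). Socs5 was higher by 1.32 but dim, from 46.6 to 118, and lay within 2-fold when normexp was used (0.67) or no background was subtracted (0.84). Ptpn6 (0.39), the phosphatase SHP-1, came next.

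Genes that IL-10 is known to restrain in LPS-treated macrophages lay on both sides of 0. Of 19, 17 were measured, 10 below 0 and 7 above, with a median of -0.13 that turned to 0.01 with spike-in scaling. The share below 0, 58.8%, was near the 53.7% of all genes. The 2 past 2-fold were the neutrophil attractants Cxcl1 (1.99), from 249 to 1011, and Cxcl2 (1.14), from 2527 to 5654, both higher. The lowest were the co-stimulatory gene Cd86 (-0.77) and the interferon-inducible chemokine Cxcl10 (-0.60, SD 0.66 over 2 probes). The p40 gene Il12b (-0.53), a target that Nfil3 is known to repress, was below 0, and Tnf (0.31) was above. Il12a and Il23a were well above background on neither array.

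Factors and kinases known to act on Il10 transcription lay mostly within 2-fold. Of 23, 22 were measured, with a median of -0.05, 1 at least 2-fold lower and 1 at least 2-fold higher. Prdm1, which encodes Blimp-1, a factor that works with c-Maf at Il10 in T cells, went from 974 to 481 (-1.05). Bhlhe40, a known repressor of Il10, went from 112 to 237 (1.06). Both lay close to the threshold. Prdm1 was within 2-fold when normexp was used (-0.93), when no background was subtracted (-0.97) and with spike-in scaling (-0.91). Bhlhe40 was within 2-fold when normexp was used (0.77) and when no background was subtracted (0.87). Rel (-0.97), an NF-kB subunit, was the next lowest, from dim signals of 145 and 75.6. Rps6ka4 (0.31), a kinase for CREB and histone H3, was the next highest.

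Relatives and partners of the response factors were the list with the highest median, 0.45 over 8 of 10 measured genes, with 0 past 2-fold. Nfkbid (0.83), an atypical inhibitor of NF-kB related to Bcl3, and the clock gene Per1 (0.75) were the highest. The ETS repressor relatives of Etv3 went opposite ways, with Etv6 at -0.76 and Erf at 0.66. Nfkb2 (-0.22), a partner of Bcl3, was the other member below 0. Sbno1, the paralog of Sbno2, was at 0.29 (SD 0.11 over 2 probes).

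**Figure D5:**
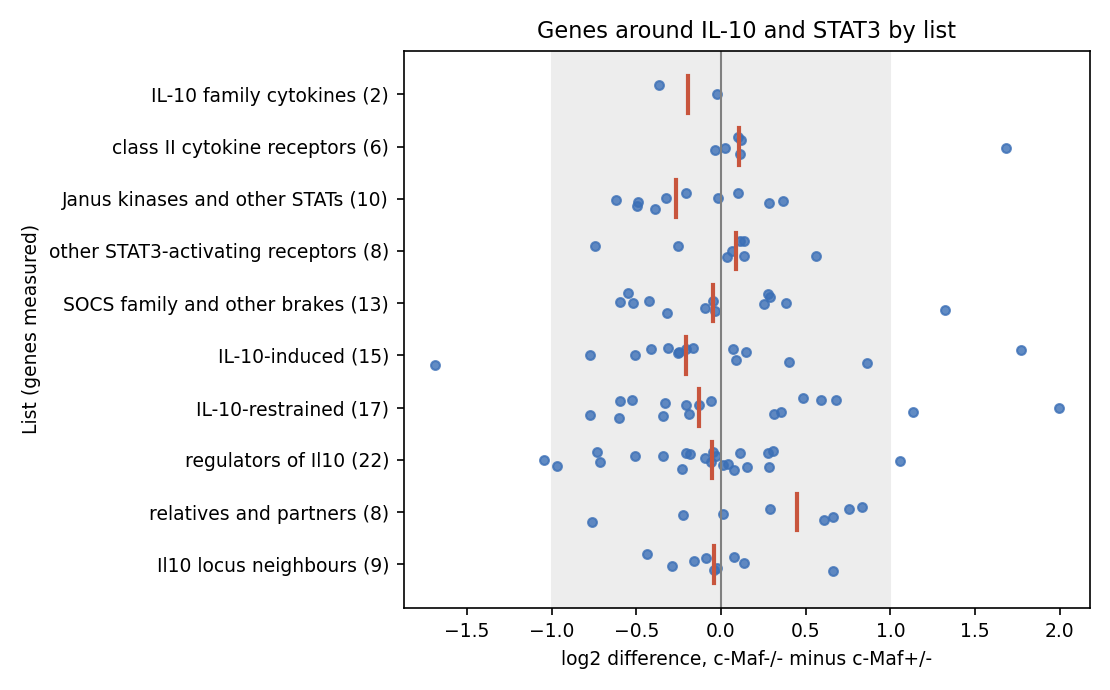
The log2 difference, c-Maf-/- minus c-Maf+/-, of each gene measured on both arrays in 10 lists around IL-10 and STAT3, with 1 point per gene, a bar at each list's median and, in brackets, the number of genes measured. The grey band is the range within 2-fold. List medians run from -0.27 to 0.45. Of 109 genes measured, 8 lie outside the band, 2 lower and 6 higher, against 1.74% and 1.43% of all genes.

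Markers of other cells that a marrow culture can hold were compared beside Il10. Over all genes 53.7% were below 0 and 1.74% at least 2-fold lower. All 9 neutrophil markers were measured and below 0, with a median of -1.01, and their summed signal went from 99716 to 55115 between the c-Maf+/- and c-Maf-/- arrays. Most of that sum came from 2 genes, S100a9 (68498 and 34671) and S100a8 (24689 and 16299), so it says little of the other markers. Elane (-0.03) and Ly6g (-0.50) were the closest to 0. At least 2-fold lower were 5 of the 9 markers: Ngp (-1.45), Ltf (-1.41), Prtn3 (-1.31), Mpo (-1.21) and S100a9 (-1.01). This count was 3 with normexp and if no background was subtracted, where Mpo and Prtn3 were within 2-fold, and 4 with spike-in or quantile scaling, where S100a9 was.

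Of 9 dendritic cell markers 7 were measured, 6 of them below 0, with a median of -0.89. This median was -0.48 with normexp and -0.52 if no background was subtracted. Flt3 was the one above 0 (0.47), from dim signals of 24.5 and 34.7. At least 2-fold lower were Fscn1 (-1.50), Itgax (-1.09) and Bcl11a (-1.06, SD 0.79 over 2 probes). Their signals were low, at 312 and 112, 275 and 131, and 103 and 50.1. Of the 3, Fscn1 alone stayed past 2-fold with normexp, with spike-in scaling and if no background was subtracted. Zbtb46, a factor of conventional dendritic cells, went from 295 to 198 (-0.60). The summed signal of the 7 went from 3183 to 2627, and that of the 6 without Ccr7 (2096 and 2058) from 1087 to 569. Clec9a was well above background in c-Maf+/- alone (log2 bound -0.60), and Xcr1 on neither array.

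Of 9 lymphocyte markers 5 were measured and 0 lay past 2-fold, with a median of -0.11 and summed signals of 4223 and 3578. The T cell kinase gene Lck went from 1530 to 810 (-0.94), Cd4 from 1609 to 1516 (-0.11) and Cd3e from 959 to 1115 (0.19). Ms4a1, Cd3d and Cd8a were well above background on neither array. Of 4 mast cell markers Tpsb2 was measured on both arrays, with signals of 357 and 302 (-0.27). Cpa3, a mast cell protease gene, was well above background in c-Maf+/- alone, with signals of 80.8 and 9.52, and was at least 3.40-fold lower in c-Maf-/-. Mcpt4 and Fcer1a were well above background on neither. The part of these cells in the Il10 difference was not tested.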

How the data were processed

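RNA from LPS-treated macrophages was measured on 1 one-colour Agilent array per genotype (design 028005, build mm9, both on 1 slide). Per the file headers, the deposited intensity values were made with Agilent Feature Extraction 10.7.3.1 (protocol GE1_107_Sep09): the authors' processed signal is background-subtracted and detrended within the array and not normalized between arrays. The files also deposited other values, namely flags for detection, saturation and outliers, and a spot error that includes a 10% multiplicative term.

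From these, log2 of the processed signal minus each array's 75th percentile over non-control spots was computed (Python 3.11.15, pandas 2.3.3; normexp with limma 3.58.1). Outlier spots were dropped, spots of a probe averaged, and genes were read as the average of their probes detected on each of the arrays. Where detection was limited to 1 array, the gene got a bound against the other array's lowest detected signal or the probe's own. Probes were named through RefSeq (GRCm38) by accession (28026), symbol (3418), another accession (99) or an older symbol (271), and 23867 had no match. Locus neighbours used only probes within 500 kb.

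With 1 array each there was no test; 2-fold was the threshold for counts. The number of arrays limits precision. Spots of 1 probe had a median SD of 0.07 (222 probes of at least 8 spots) and probes of 1 gene 0.09 (3452 genes). The counting step was run on simulated data, with planted changes past 2-fold and noise equal to the 0.09 for probes. That noise is below the SD of 0.41 over all genes, so the run checks the code and not the counts. Alternatives were normexp, no background subtraction, spike-in or quantile scaling, no filter on dim probes, the brightest probe, and outlier spots kept. The members and lists were chosen with earlier results of these data known. Named genes were the members, Maf, the 5 genes nearest to Il10, and in each list those past 2-fold and the 2 farthest from 0 each way. Other genes (among them Ifnar1, Ifngr1, Ifnar2, Il6st, Il12b, Tnf and Sbno1) were named after their values were seen. Marker genes were also named after their values were seen.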

Additional observations from a re-analysis of the deposited data

How the results depend on the processing

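Under all 7 alternatives Il10 stayed past 2-fold lower and was the only one of the 9 genes past 2-fold in either direction. Keeping dim probes, keeping outlier spots and using the brightest probe were no check on Il10. It rests on 1 probe, none of whose 10 spots was dropped and all of which were well above background. Its difference moved by more than 1 SD of its spots with normexp background correction (-2.11) and spike-in scaling (-2.04). The members' median moved to -0.14 with spike-in scaling and -0.37 with the brightest probe per gene, the latter because Sbno2 then rests on its -0.51 probe. The Maf bound was -4.97 with normexp, -5.29 without background subtraction, -6.77 with spike-in scaling and -9.31 with the brightest probe. Counts over all genes, 216 lower and 177 higher, became 109 lower and 68 higher when normexp was used, 124 lower and 82 higher when no background was subtracted, 142 lower and 262 higher with spike-in scaling, and 871 lower and 885 higher when dim probes were kept. With spike-in scaling 64.9% of calls were on the higher side, against 45.0%, and the medians of 4 lists turned above 0: genes restrained by IL-10 (0.01), SOCS and other brakes (0.09), regulators of Il10 (0.08) and locus neighbours (0.10). Of 140 other values, 119 moved by less than the technical error of a spot or probe (counts by at most 1.5 times), among them Il10ra, which turned above 0 with spike-in scaling. Part of this was fixed in advance. Members of 1 spot could not move with dim probes kept, outlier spots kept or the brightest probe. The spike-in shift of 0.14 is below the software error of 0.20 by which the members other than Il10 were judged. No paired analysis was possible because each genotype has 1 array, and leaving out a replicate was not possible for the same reason. Single spots near background limit the dim genes.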
